A study of Mus musculus with 4 samples.

Results

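The genes described here are 10 paternally expressed imprinted genes of the mouse: Peg3, Usp29, Ndn, Magel2, Snrpn, Mest, Peg10, Sgce, Plagl1 and Nap1l5. They were found on the array as every probe set whose platform annotation names at least 1 of them, which gave 31 of 45037 probe sets after control probe sets were left out, for 10 of the 19324 genes named on the platform. Of these, 6 carried the annotation Snurf and Snrpn together and could not be assigned to either gene, and 25 carried a single symbol. The cells were immortalized brown preadipocytes, precursors of brown fat, of a mixed C57/BL6-129 strain, cultured in DMEM with serum. All carried floxed alleles of G9a (G9af/f, gene symbol Ehmt2), a histone H3 lysine methyltransferase. The 2 vector arrays (Vec, genotype label wild type) were the control, and the 2 Cre arrays (genotype label G9a knock out) were of cells given Cre. The labels do not say how Cre was introduced or whether 2 arrays of a group stem from separate cultures. The p-values therefore cover no spread beyond that between these arrays. For each probe set that spread is pooled with that of all tested probe sets. Each array gives 1 signal intensity per probe set on a linear scale, and the precision of all values is limited by having 4 arrays.

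Imprinted genes are expressed from 1 parental copy, because a differentially methylated control region set in the germ line keeps the other copy silent. The 10 genes are silent on the maternal copy. Peg3 and Usp29 form a head-to-head pair, Ndn, Magel2 and Snrpn belong to the Prader-Willi region, and Peg10 and Sgce also form a head-to-head pair. Work in other cells has linked G9a to silencing of the maternal Prader-Willi genes. Several of the genes are known in fat: Mest is used as a marker of expanding adipose tissue, and necdin, the product of Ndn, restrains adipocyte differentiation. Arrays of this kind read both parental copies together, so no value below separates them.

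Ehmt2, the targeted gene, read 2682 and 2688 signal units in the vector arrays and 953 and 912 in the Cre arrays. It was lower in the cells labelled knockout, though the labels do not say whether its probe set lies in the deleted part. The medians of the 4 arrays lay between 50.6 and 78 signal units. The mesenchymal and preadipocyte markers were uneven: the collagen gene Col1a1 read 12924 and 11848 units in the vector arrays and 15187 and 13361 in the Cre arrays, while Pdgfra read 248 and 81.7 against 106 and 59.1 and Zfp423 at most 3.8. Of the fat cell markers, Adipoq and Ucp1 read at most 21.8, but Fabp4, Lpl and Pparg were above the level filter. Arrays with the same replicate number shared a pattern of sex-linked transcripts that differed from the other number, so same-numbered arrays were treated as pairs. A model without the pairing is the main one, and a model that takes the replicate number as a blocking factor (called paired) is given beside it. The main model counts differences between the replicate numbers as spread within a group. For the brightest Ndn probe set its standard error (SE) was 0.47, against 0.15 in the paired model. SEs below are those of the main model unless stated.

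The members fell into 2 sets by brightness. A probe set was tested where its mean normalized signal over the 4 arrays reached the median of all probe sets, 63.1 units, which left 22519 probe sets. Of the 31 member probe sets 15 passed, from 6 genes: 5 of Ndn, 4 annotated Snurf and Snrpn, 3 of Peg3 and 1 each of Mest, Sgce and Plagl1. The other 16 did not, among them all probe sets of Usp29, Magel2, Peg10 and Nap1l5. Brightness depends on the probes as well as on the transcript, so these levels do not rank the genes.

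All differences below are Cre minus vector on the scale log2(quantile normalized signal + 16), which understates the change of dim probe sets, and signals are the deposited ones. Without the pairing 0 of the 15 tested member probe sets passed a limma adjusted p of 0.05 in either direction, where 0.00888% of all tested probe sets were called higher and 0% lower. At an unadjusted p under 0.05 there was 1 of the 15, a probe set of Sgce, against 4.17% of all. In the paired model 5 of the 15 rose, 4 of Ndn and 1 of Sgce, where 2.22% of all tested probe sets were called higher. None of the 15 fell in that model, where 0.795% of all were called lower. The 5 come from 2 genes, and the probe sets of 1 gene share its RNA, so they are not 5 separate cases. In bulk RNA, more cells of a kind and more RNA per cell cannot be told apart.

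Among the fat cell markers, Fabp4 moved beside the members. Fabp4, which encodes a fatty acid carrier of adipocytes, read 186 and 112 in the vector arrays and 908 and 1120 in the Cre arrays, 6.27-fold higher (2.65 ± 0.27; SE, n = 2 against 2). With the pairing it rose, at a limma adjusted p of 0.000198, and without the pairing the limma adjusted p was 0.145, which did not pass. It was the single call among the 3 tested of 6 adipocyte markers on the array, and Lpl and Pparg differed by 0.27 ± 0.49 and 0.26 ± 0.64. The summed signal of the 6, Fabp4 included, was 721 and 1421 in the vector arrays and 1725 and 2376 in the Cre arrays. Lpl, also in that sum, was higher in Cre within number 1 (0.72) and lower within number 2 (-0.18). Of 6 brown fat markers 2 were tested and 0 passed in either model, with summed signals of 237 and 177 against 473 and 281. Of 11 mesenchymal and preadipocyte markers 9 were tested. In the paired model 1 of them rose, the collagen gene Col3a1 (0.51 ± 0.31, limma adjusted p = 0.0183), and 0 fell, while Pdgfra differed by -0.83 ± 0.42 and did not pass. The summed signal of the 11 was 52011 and 45738 against 57788 and 54544, most of it from the collagen genes Col1a1, Col1a2 and Col3a1. Dlk1 read 5421 and 5238 against 1690 and 4882, and Cd34 151 and 79.4 against 99.6 and 68.7. On the normalized scale both Cre arrays lay below both vector arrays for 3 of the 9, against 15.7% of all tested probe sets. They lay above for 0 of the 9, against 14.2%. The part of these markers in the members' differences was not tested.

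Without regard to a test, and on the normalized scale, 13 of the 15 were higher in the Cre array within both replicate numbers, and 0 were lower in both, against 28% and 33.2% of all tested probe sets. Both Cre arrays lay above both vector arrays for 9 of the 15, against 14.2% of all, and below both for 0, against 15.7%. In the deposited signals this count was 8 of the 15, against 13.7% of all, because Peg3 1417355_at overlapped there. Of the 15, 5 are probe sets of Ndn and 4 of Snurf and Snrpn, so the 15 are not separate cases. By the brightest probe set of each gene, the groups were apart for Peg3 and Sgce. They overlapped for Ndn, Snurf and Snrpn, Mest and Plagl1. Except for Plagl1, these brightest probe sets were higher in Cre within both numbers. The median difference over the 15 was 0.61, or 0.25 without vector array 2, and it was 0.43 within number 1 and 0.55 within number 2. Over all 22519 tested probe sets these medians were -0.022, -0.018 and -0.02. Over all 31 member probe sets, dim ones included, the median was 0.27.

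**Figure D1:**
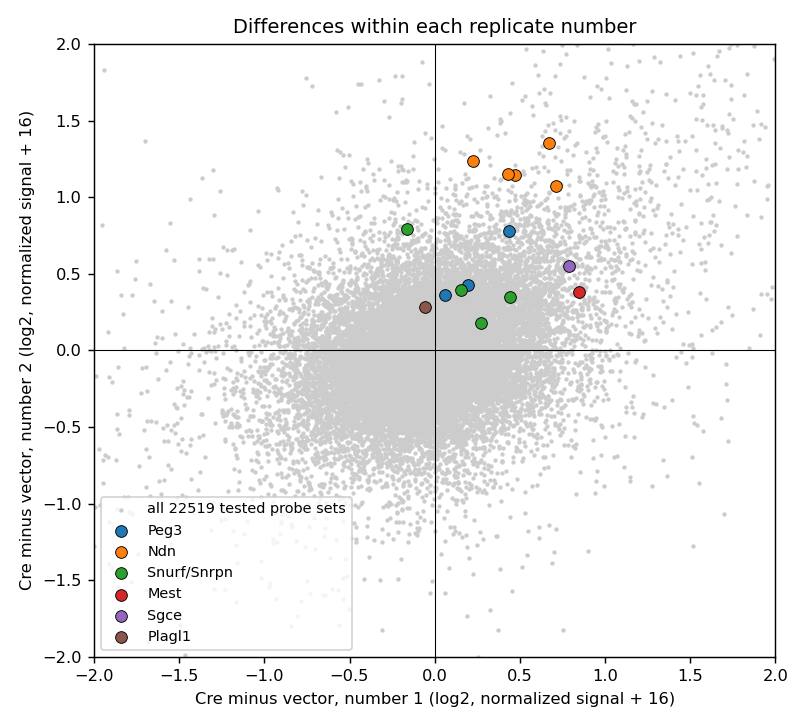
Cre minus vector within number 1 (horizontal) and number 2 (vertical), both in log2 units, for the 15 member probe sets above the level filter (coloured by gene) and all 22519 tested probe sets (grey; 183 lie outside the range of -2 to 2 drawn). The 5 Ndn points sit highest, and 13 of the 15 lie right of 0 and above 0, while Plagl1 and 1 Snurf/Snrpn probe set lie left of 0.

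Ndn encodes necdin, a protein of the MAGE family that binds E2F factors and p53 and favours exit from the cell cycle. Its start lies in the Prader-Willi region on chromosome 7, and the 250 bases before it are shown because it is the member with the largest differences among those tested, beside Magel2, the neighbouring MAGE gene whose probe set did not pass the level filter. Capitals mark CpG dinucleotides, the sites where imprinted starts carry DNA methylation. The Ndn stretch is chr7:62348027-62348276 on the plus strand and holds 5 CpG, and the Magel2 stretch is chr7:62376729-62376978 on the plus strand and holds 7.
Ndn: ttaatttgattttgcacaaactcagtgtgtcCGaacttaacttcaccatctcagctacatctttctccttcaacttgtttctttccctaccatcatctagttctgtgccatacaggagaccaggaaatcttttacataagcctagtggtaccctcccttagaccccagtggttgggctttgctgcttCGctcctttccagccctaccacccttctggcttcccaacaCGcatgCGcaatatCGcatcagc
Magel2: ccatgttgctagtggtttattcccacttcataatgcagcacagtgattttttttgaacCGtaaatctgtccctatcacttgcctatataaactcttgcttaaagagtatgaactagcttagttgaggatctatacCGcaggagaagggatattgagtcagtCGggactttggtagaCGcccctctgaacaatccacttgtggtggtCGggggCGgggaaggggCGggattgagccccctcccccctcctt
These and the sequences below are from RefSeq, build GRCm38.p6.

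The brightest Ndn probe set (1435382_at) read 4774 and 1910 in vector arrays 1 and 2 and 6605 and 4304 in Cre arrays 1 and 2. Vector array 2 stood below the other 3 arrays, and vector array 1 read slightly above Cre array 2, so the groups overlapped. Probe set 1415923_at read 4504 and 2014 in the vector arrays and 5180 and 4893 in the Cre arrays. Here both Cre arrays lay above both vector arrays, again with vector array 2 far below the rest. Probe set 1435383_x_at read 4375 and 1797 against 5817 and 4095, with the same overlap as the first. Probe set 1437853_x_at read 2735 and 1382 against 4397 and 2958, and 1455792_x_at read 2827 and 1128 against 4404 and 2955. The groups did not overlap in either, although vector array 1 and Cre array 2 were close. In all 5 probe sets vector array 2 was the lowest array and Cre array 1 the highest. The suffix x marks probe sets that can match several transcripts, and 3 of these 5 carry it.

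Within number 1 the Ndn differences ran from 0.23 (1415923_at) to 0.71 (1437853_x_at), that is 1.17-fold to 1.64-fold. Within number 2 they ran from 1.07 (1437853_x_at) to 1.36 (1455792_x_at), or 2.10-fold to 2.56-fold, so each of the 5 differed more in number 2. Over both numbers the differences were 0.73 ± 0.39 (SE, n = 2 against 2) for 1415923_at, 0.79 ± 0.45 for 1435383_x_at, 0.81 ± 0.47 for 1435382_at, 0.89 ± 0.39 for 1437853_x_at and 1.01 ± 0.47 for 1455792_x_at. None passed without the pairing, with a limma adjusted p of 0.999 for each. With the pairing the SEs were 0.14 to 0.19.

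In the paired model Ndn rose by 4 of its 5 tested probe sets. The limma adjusted p was 0.00678 for 1437853_x_at, 0.00962 for 1455792_x_at, 0.0193 for 1435382_at and 0.0256 for 1435383_x_at, and it was 0.0809 for 1415923_at, which did not pass. Vector array 2 sets much of the size. Without it the differences over the remaining arrays were 0.11 (1435382_at), 0.12 (1415923_at), 0.13 (1435383_x_at), 0.39 (1437853_x_at) and 0.34 (1455792_x_at). Without vector array 1 they were between 1.35 and 1.69, without Cre array 1 between 0.45 and 0.68, and without Cre array 2 between 0.84 and 1.34. Leaving out an array also unbalances the replicate numbers. All 4 paired calls of Ndn were lost without the level filter, where the lowest limma adjusted p was 0.0788, and without the intensity trend. Median centring also ended those of 1435382_at and 1435383_x_at, and the 75th percentile filter and robust eBayes that of 1435383_x_at. Of 9 settings of the paired model, 7 called 1437853_x_at and 1455792_x_at, 6 called 1435382_at, 4 called 1435383_x_at and 1, the deposited scaling, called 1415923_at.

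The 3 remaining Ndn probe sets were dim and read between 2.1 and 72.6 signal units. Probe set 1456575_at read 23.6 and 2.1 in the vector arrays and 40.6 and 24 in the Cre arrays, with no overlap of the groups. The groups overlapped in the other 2.

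**Figure D2:**
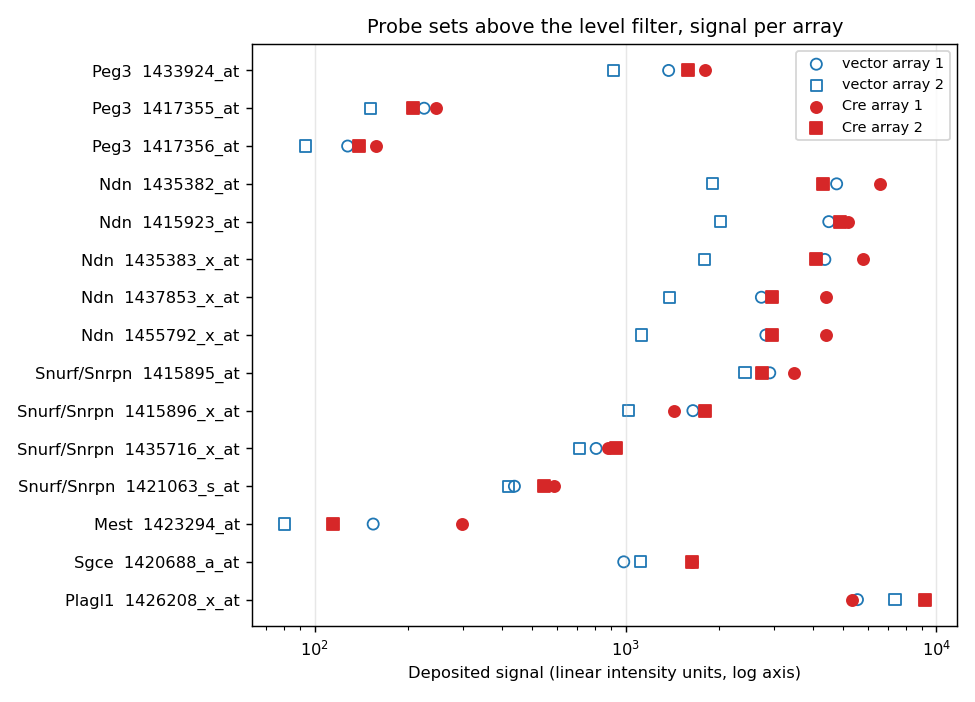
Deposited signal (log axis) of the 15 member probe sets above the level filter, 1 row each, in vector arrays 1 and 2 (open symbols) and Cre arrays 1 and 2 (filled). For the 5 Ndn probe sets vector array 2 stands far left of the other 3 arrays, while for Sgce both Cre arrays lie together at 1636 and 1639, right of both vector arrays.

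Snrpn encodes SmN, a core protein of spliceosomal particles, and Snurf a short protein read from the same bicistronic transcript. The start of that transcript lies at the imprinting centre of the Prader-Willi region, which is why the 250 bases before it are shown, with CpG in capitals. The stretch is chr7:60005200-60005449 on the minus strand and holds 3 CpG.
Snurf and Snrpn: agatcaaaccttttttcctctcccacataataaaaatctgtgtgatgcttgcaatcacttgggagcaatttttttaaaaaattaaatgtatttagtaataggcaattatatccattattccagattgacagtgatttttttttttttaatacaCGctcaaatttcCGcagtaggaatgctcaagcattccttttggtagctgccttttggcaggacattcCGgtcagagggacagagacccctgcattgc

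The brightest of the Snurf and Snrpn probe sets (1415895_at) read 2909 and 2422 in the vector arrays and 3469 and 2742 in the Cre arrays, so that Cre array 2 fell between the vector arrays. Probe set 1415896_x_at read 1647 and 1025 against 1435 and 1802, and it was lower in Cre within number 1 (-0.16) and higher within number 2 (0.79). Probe set 1435716_x_at read 804.5 and 713 against 880.0 and 935, and 1421063_s_at read 439 and 421 against 588 and 548.5. In these last 2 both Cre arrays lay above both vector arrays. The differences were 0.23 ± 0.23, 0.32 ± 0.29, 0.28 ± 0.23 and 0.39 ± 0.23 in that order (SE, n = 2 against 2; limma adjusted p = 0.999 for each). None passed in the paired model either, with limma adjusted p-values from 0.310 to 0.513. For 1421063_s_at the 95% interval without the pairing ran from -0.16 to 0.95, so these arrays set only wide bounds on it. The 3 dim Snrpn probe sets read between 0.6 and 14.9, including 1432096_at, the probe set annotated with Snrpn alone.

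Magel2, whose product takes part in protein recycling from endosomes, had 1 probe set (1417217_at). It read 24 and 27.2 in the vector arrays and 53.1 and 28.4 in the Cre arrays, so Cre array 1 alone stood apart. It lay below the array medians in all 4 arrays, with differences of 0.55 within number 1 and 0.0061 within number 2.

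Peg3 encodes a large zinc finger protein that binds DNA and acts in growth and in stem cells of mesenchymal tissues. Usp29, a ubiquitin protease gene, starts close by on the opposite strand. The 163 bases between both starts are shown on the plus strand (chr7:6730420-6730582, 5 CpG, in capitals), because the pair shares this stretch while Peg3 had tested probe sets and Usp29 none.
Peg3 to Usp29: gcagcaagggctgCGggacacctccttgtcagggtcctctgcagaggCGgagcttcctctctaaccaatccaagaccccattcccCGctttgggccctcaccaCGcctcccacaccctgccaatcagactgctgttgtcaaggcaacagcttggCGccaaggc

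The brightest Peg3 probe set (1433924_at) read 1376 and 916 in the vector arrays and 1802 and 1593 in the Cre arrays. Both Cre arrays lay above both vector arrays. The difference was 0.61 ± 0.27 (SE, n = 2 against 2), 1.53-fold, with 0.44 within number 1 and 0.78 within number 2. It did not pass without the pairing (limma adjusted p = 0.999) or with it (0.0754). The other tested probe sets were in the same direction with smaller differences and did not pass: 1417355_at read 225 and 152 against 245 and 207 (0.21 ± 0.24), and 1417356_at read 128 and 93.6 against 157 and 139 (0.31 ± 0.26). In the deposited signals of each of the 3 the lowest array was vector array 2 and the highest Cre array 1. After normalization vector array 2 was still the lowest, but Cre array 2 was the highest for 1417355_at and 1417356_at. The other 2 probe sets of Peg3 read at most 2.9 units.

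Usp29 was dim in both of its probe sets. Probe set 1427551_at read 41.6 and 22.3 in the vector arrays and 60.9 and 11.1 in the Cre arrays, higher in Cre within number 1 and lower within number 2. Probe set 1419237_at read between 3 and 8.5.

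Sgce encodes epsilon-sarcoglycan, a membrane protein, and starts next to Peg10, a gene derived from a retrotransposon that is needed for the placenta. The Sgce probe set 1420688_a_at read 987 and 1115 in the vector arrays and 1636 and 1639 in the Cre arrays. The groups were well apart and the arrays of each group close to each other. The difference was 0.67 ± 0.22 (SE, n = 2 against 2; interval of 95%, 0.13 to 1.21), 1.59-fold, with 0.79 within number 1 and 0.55 within number 2. Without the pairing the limma adjusted p was 0.962. Sgce rose in the paired model (limma adjusted p = 0.0484), just past the threshold, and this call held in 4 of 9 settings of that model, where the limma adjusted p ran from 0.028 to 0.216. With each array left out in turn the difference stayed between 0.56 and 0.78, the narrowest relative range among the members called. The second Sgce probe set (1443518_at) pointed the other way at a very dim level, with 17.8 and 7.3 against 3.6 and 2.5.

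Peg10 had 1 probe set (1427550_at), below the filter, with 30.7 and 36.3 in the vector arrays and 24.3 and 42.8 in the Cre arrays. The groups overlapped.

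**Figure D3:**
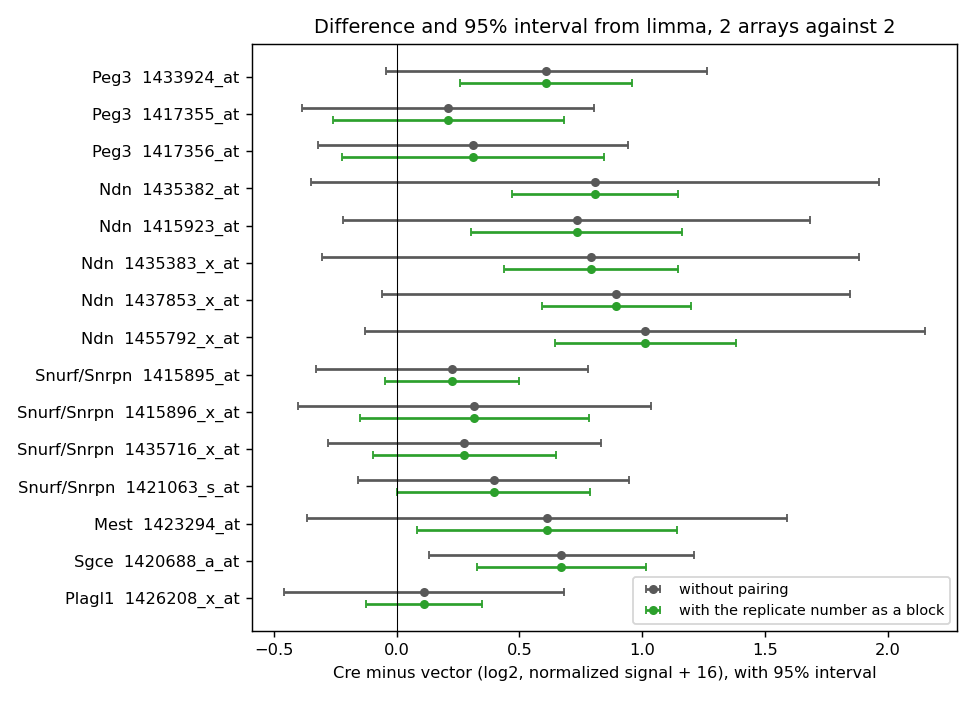
Difference (Cre minus vector, log2) and 95% interval from limma for the 15 tested member probe sets, without the pairing (grey) and with the replicate number as a block (green). Without the pairing only the interval of Sgce (0.13 to 1.21) lies above 0. With it the intervals of all 5 Ndn probe sets, Sgce, Peg3 1433924_at, Mest and Snurf/Snrpn 1421063_s_at do, before adjustment over all probe sets. These are 9 of the 15, while 15.9% of all tested probe sets had an unadjusted limma p under 0.05 in the paired model, in either direction.

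Mest encodes an enzyme of the hydrolase family that is found in the endoplasmic reticulum and is linked to fat cell size. RefSeq lists 3 starts for it. The 250 bases before the last of them (chr6:30737803-30738052, plus strand) are shown because they hold 2 copies of TGCCGC, counted on both strands, the hexamer that the imprint-keeping protein ZFP57 binds when it is methylated. Capitals mark the 14 CpG.
Mest: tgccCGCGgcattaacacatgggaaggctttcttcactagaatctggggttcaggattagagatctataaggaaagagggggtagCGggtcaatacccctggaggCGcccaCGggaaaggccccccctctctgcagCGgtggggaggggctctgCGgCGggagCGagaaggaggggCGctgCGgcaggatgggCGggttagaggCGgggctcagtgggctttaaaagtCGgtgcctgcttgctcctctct
On windows of 300 bases (250 before to 50 after each start) TGCCGC was found in 5 of 13 windows of 8 members, from 4 genes (Snrpn, Mest, Plagl1 and Nap1l5), and in 11.6% of all 32851 windows. Both Mest windows among the 5 share 297 bases and hold the same matches. With overlapping windows taken as 1 stretch, it was found in 4 of 11 stretches of members and in 11.5% of all 29061 stretches. A match is a description of these letters and not a bound site.

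The Mest probe set (1423294_at) read 154 and 80 in the vector arrays and 298 and 115 in the Cre arrays. Cre array 2 lay below vector array 1, so the groups overlapped, and array 2 was below array 1 in both groups. Within number 1 Cre was 1.80-fold higher (0.84) and within number 2 it was 1.30-fold higher (0.38). The difference was 0.61 ± 0.40 (SE, n = 2 against 2) and did not pass in either model (limma adjusted p = 0.999 and 0.239). It was 0.12 without Cre array 1 and 1.10 without Cre array 2.

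Plagl1 encodes a zinc finger transcription factor that arrests the cell cycle and regulates other imprinted genes. Its bright probe set (1426208_x_at) read 5570 and 7358 in the vector arrays and 5346 and 9211 in the Cre arrays. This probe set carries the suffix x and can match several transcripts. Array 2 exceeded array 1 in both groups, and the groups overlapped. The difference was 0.11 ± 0.23 (SE, n = 2 against 2; interval of 95%, -0.46 to 0.68), with -0.059 and 0.28 within numbers 1 and 2. It did not pass, with limma adjusted p-values of 0.999 without and 0.669 with the pairing. Leaving out vector array 1 or Cre array 2 turned its direction, to -0.031 and -0.20. The other probe sets of Plagl1 were dim: 1450533_a_at read 14.9 and 41.2 against 13.2 and 85.6, and 1438588_at read 47 and 31.1 against 61.8 and 23.4. Both followed the replicate number more than the group.

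Nap1l5, an intronless gene related to nucleosome assembly factors, had 1 dim probe set (1417411_at). It read 7 and 2.9 in the vector arrays and 10.2 and 25.7 in the Cre arrays. The groups did not overlap, but all 4 values lay far below the array medians.

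**Figure D4:**
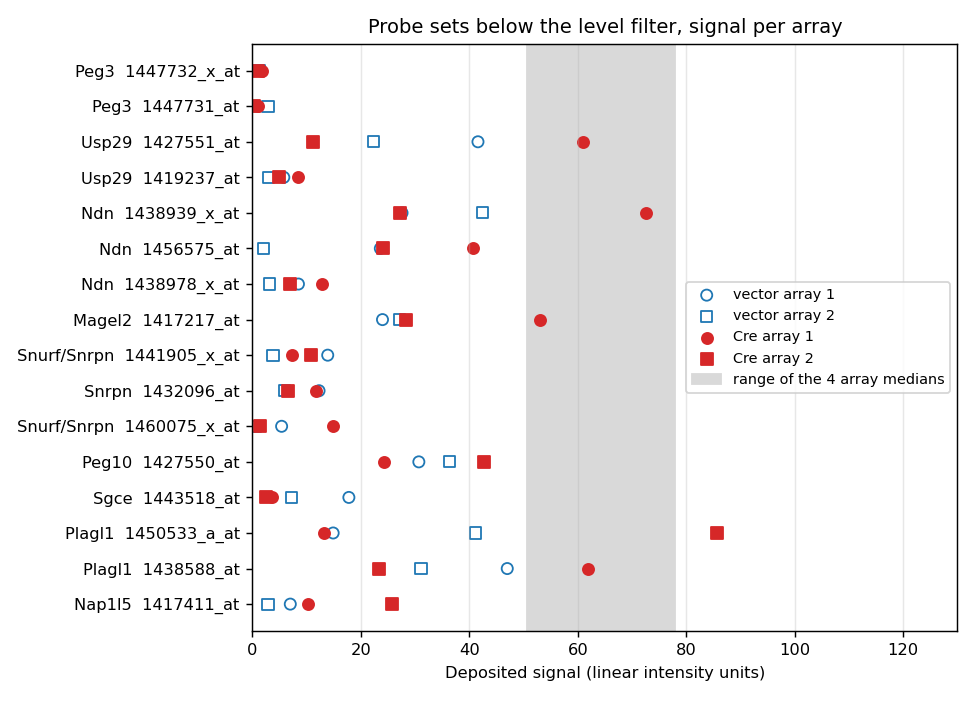
Deposited signal (linear axis) of the 16 member probe sets below the level filter in vector arrays 1 and 2 (open symbols) and Cre arrays 1 and 2 (filled), with the range of the 4 array medians, 50.6 to 78, in grey. Most points lie left of that range. Cre array 1, whose median of 78 is the highest of the 4, reads highest in more rows than any other array.

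Among the 16 dim probe sets 6 were, on the normalized scale, higher in Cre within both numbers, 2 were lower in both and 8 were opposite. The same shares over all probe sets below the filter were not counted, so no lean is read from these counts. In the fits without a level filter 0 of the 16 passed, and 0 of all 31 member probe sets did, where 0% of all 45037 probe sets were called higher without the pairing and 0.155% with it. Among the 31, no limma adjusted p without the filter was below 0.0788.

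The replicate numbers differed for many members. Among the 15 tested probe sets, the normalized signal of vector array 2 lay below that of vector array 1 in 12, against 48.1% of all tested, and that of Cre array 2 below Cre array 1 in 9, against 48.2%. In the deposited signals these counts were 13 and 11, against 58.9% and 59.2% of all. On the normalized log2 scale the median of array 2 minus array 1 was -0.51 in the vector group and -0.20 in the Cre group, against 0.02 over all tested probe sets in each. Of the 15 differences between groups, 11 were larger within number 2, among them those of the 5 tested Ndn probe sets. The same share over all tested probe sets was not counted. Number 1 and number 2 hold 1 array of each group, so the difference between the numbers was not tested.

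Genes next to the members in the same imprinted domains, taken from lists of other imprinted genes, did not share 1 direction. In the Prader-Willi region the maternally expressed Ube3a, the ubiquitin ligase gene of Angelman syndrome, read 2452 and 2122 against 1957 and 2209 (-0.11 ± 0.20), and its neighbour Atp10a differed by 0.02 ± 0.25. Peg12, paternally expressed like Ndn, differed by -0.27 ± 0.37, and Mkrn3 was below the filter. None of these passed in either model. Around Sgce and Peg10, 2 genes that are maternally expressed in some tissues rose in the paired model. Pon3, a paraoxonase gene, read 309 and 208 in the vector arrays and 727 and 472 in the Cre arrays, with 1.13 ± 0.28 and a limma adjusted p of 0.67 without and 0.00922 with the pairing. Tfpi2, which encodes a protease inhibitor of the matrix, read 59.1 and 176 against 174 and 623, with 1.44 ± 0.77 and a limma adjusted p of 0.999 without and 0.00677 with the pairing. Ppp1r9a and Pon2, of the same domain, did not pass (0.51 ± 0.42 and 0.34 ± 0.31). Next to Mest, Copg2 differed by 0.0085 ± 0.30 and Klf14 by 0.34 ± 0.41. These neighbours were named for their position and, save Pon3, outside the naming rule.

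**Figure D5:**
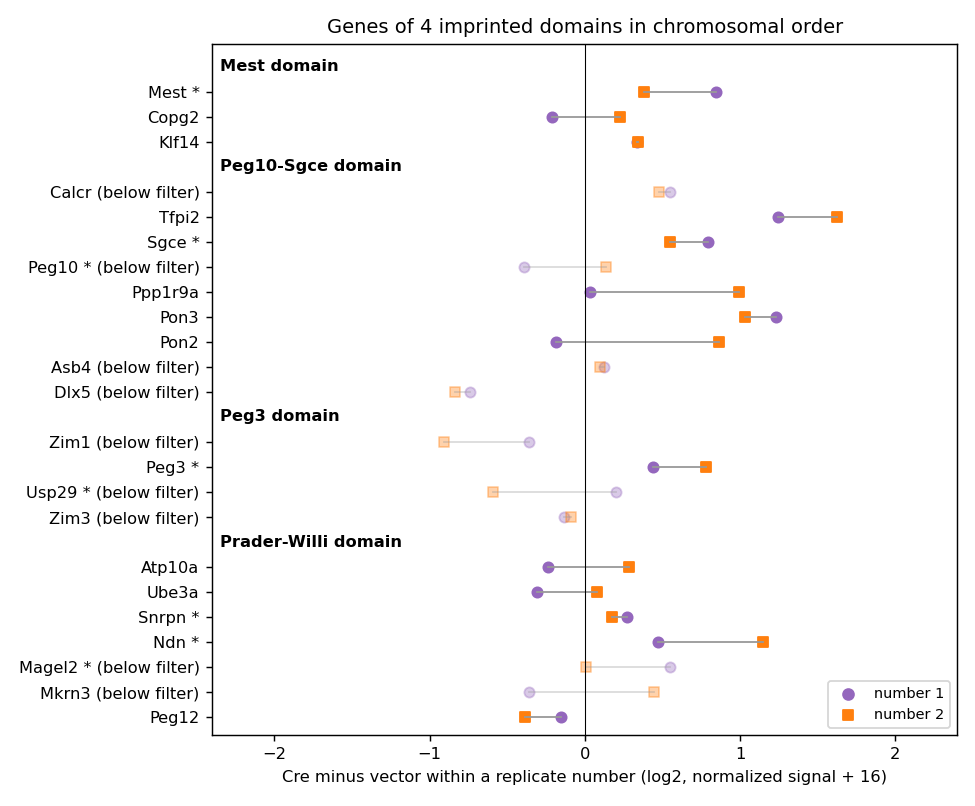
Cre minus vector (log2) within number 1 (circles) and number 2 (squares) for genes of 4 imprinted domains in chromosomal order, members marked with an asterisk and probe sets below the level filter drawn pale. Sgce, Tfpi2 and Pon3 lie right of 0 in both numbers, while Ndn lies right of 0 beside Ube3a, Atp10a and Peg12, which do not in both.

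Of the other paternally expressed imprinted genes, 20 of 26 were on the array with a single symbol and 15 were tested. In the paired model 1 rose, Smoc1, and 0 fell. Without the pairing 0 passed, and the median difference was -0.13, against 0.61 over the member probe sets. The 2 medians are unlike: the first takes each gene by its brightest probe set, the second takes all tested probe sets of 6 genes. Igf2, the growth factor gene, read 3110 and 95.8 in the vector arrays and 479 and 73.2 in the Cre arrays, and Dlk1, a preadipocyte factor gene, 5421 and 5238 against 1690 and 4882. Both were lower in Cre within each number and neither passed. Of the maternally expressed genes 23 of 36 were tested, with a median of 0.068. In the paired model 2 rose (Pon3 and Tfpi2) and 3 fell. Those were Meg3 and Mirg, noncoding RNAs of the Dlk1 domain, which differed by -1.24 ± 0.39 and -1.12 ± 0.27, and Dcn, the decorin gene (-2.01 ± 0.87). Rian, of the same domain, differed by -1.31 ± 0.45 and did not pass. Without the pairing 0 genes of either list passed.

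Among regulators that set or keep imprints, 26 of 32 were tested and 1 fell in the paired model, Ehmt2 itself. On the normalized scale both Cre arrays lay below both vector arrays for 11 of the 26, against 15.7% of all tested probe sets. They lay above for 1, against 14.2%. Dnmt3a, a DNA methyltransferase gene, read 286 and 118 in the vector arrays and 427 and 232.5 in the Cre arrays (0.68 ± 0.39), which did not pass. Uhrf1, which guides methylation to newly made DNA, differed by -0.26 ± 0.15, and Cbx5, the gene of HP1 alpha, by -0.30 ± 0.17. Zfp57 differed by -0.40 ± 0.31 and Trim28, its partner, by -0.11 ± 0.13, and none of these passed in either model. The median over the list was -0.12. Igf2, Dcn, Zfp57 and Trim28 were chosen for naming after their values were seen.

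Ndn, Magel2 and Snrpn are prominent in neurons, so neuronal markers are given beside them. Of 9 markers 4 were tested, and in the paired model 1 rose (Stmn2) and 1 fell (Tubb3). Stmn2 read 197 and 67.9 in the vector arrays and 407 and 1034 in the Cre arrays, and Tubb3 read 483 and 322 against 165 and 210. Map2 and Elavl4 differed by 0.60 ± 0.26 and 0.26 ± 0.37 and did not pass in either model. The median difference over the 4 was 0.43. On the normalized scale both Cre arrays lay above both vector arrays for 2 of the 4, against 14.2% of all tested probe sets. They lay below for 1, against 15.7%. The summed signal of the 9 was 1053 and 840 in the vector arrays and 1116 and 1816 in the Cre arrays. No marker was at 0, and the defining markers Rbfox3 and Snap25 read at most 72.1 and 8.3. Their part in the results above was not tested. Of the macrophage, endothelial and skeletal muscle markers, 3 of 6, 1 of 5 and 1 of 5 were tested, and 0 passed in either model.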

How the data were processed

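RNA of 4 mouse cell samples was hybridized to Affymetrix arrays with 45101 probe sets. Signal intensity values, 1 per probe set and array, were made by the authors with MAS5, per the submitters' processing notes, and the trimmed mean (2% from each end) of each deposited array is 500. The MAS5 version is not given in the sources used here. Leaving out 64 control probe sets, 34945 probe sets had 1 gene symbol, 932 several and 9160 none, and 34741 matched RefSeq (GRCm38.p6) by gene ID.

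Intensities were quantile normalized and taken as log2(signal + 16). Probe sets at or above the 50th percentile of mean signal (22519) were fitted in limma 3.58.1 (R 4.3.3) with lmFit and trended eBayes, Cre against vector, and p-values were adjusted by Benjamini-Hochberg over all of them at 0.05. Intervals, SEs and p-values come from that model, which pools the spread of a probe set with that of all tested probe sets. It has 2 residual degrees of freedom, and the pooling adds 4.03. With the pairing these are 1 and 9.19. With 2 arrays a group, the smallest two-sided p of an exact permutation test is 0.333. The fits were tested on simulated data.

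The replicate numbers in the labels were checked for pairing: over the tested probe sets, arrays of 1 number deviated from their groups' means together (correlation 0.605). Xist was bright in number 1 (vector 11049, Cre 9810) and dim in number 2 (vector 41.8, Cre 58). The Y-linked Eif2s3y was brighter in number 2 (vector 1127, Cre 1265) than in number 1 (vector 141, Cre 228). On that ground same-numbered arrays were treated as sharing an origin of cells.

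Every member probe set was described, a gene being led by its brightest one. Other imprinted genes, imprint regulators and cell type markers came from lists, with up to 4 of a list named by smallest p, and neighbours were list genes within 3 Mb of a member. Members and lists were chosen with earlier results of these data known. Alternatives were no filter, a 75th percentile filter, pseudocounts of 1 and 64, the deposited scaling, median centring, eBayes without trend or robust, each array left out in turn, and the replicate block.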

Additional observations from a re-analysis of the deposited data

How the results depend on the processing

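Without the pairing 0 member probe sets were called in either direction under each alternative run, while 5 were called higher with the replicate block, which moved the calls over all probe sets from 2 higher and 0 lower to 500 and 179. Over all probe sets 1 was called higher with a pseudocount of 1, 0 without the filter, 0 without the trend, and 7 higher and 1 lower with median centring. Leaving out each array gave 5 to 26 higher and 0 to 2 lower. The cause was not tested. The settings of the paired model were varied after seeing the data: the 5 calls became 0 without the filter, 2 with median centring, 3 with the 75th percentile filter and 0 without the trend, and the calls over all probe sets, 73.6% of them higher, were 57.3% higher with median centring, 83.3% without the filter and 90.9% without the trend (50 higher and 5 lower). Median centring put the median difference of all tested probe sets at -0.11. The members' median of 0.61 was 0.48 with a pseudocount of 64, 0.27 without the filter, 0.48 with median centring and 0.25 to 0.68 with an array left out, the lowest without vector array 2. Of the 15 tested member probe sets, 11 were above 0 within both numbers with median centring, in place of 13. With an array left out, the Snurf and Snrpn probe set 1415896_x_at ran from -0.016 to 0.65 and Plagl1 from -0.20 to 0.43, and the other 13 kept their direction under each alternative. The fit with the replicate block changed no other call of a member. Usp29, Magel2, Peg10 and Nap1l5 had no probe set bright enough to be tested, which limits what can be said of them.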

Other observations

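Some genes are imprinted in extraembryonic tissue through histone methylation in place of DNA methylation, and 5 of them were on the list of paternally expressed genes. They were picked out after their values were seen. Smoc1, which encodes a secreted calcium-binding matrix protein, read 116 and 58 signal units in the vector arrays and 1033 and 479 in the Cre arrays. Both Cre arrays lay above both vector arrays, with log2 differences of 3.12 within number 1 and 2.58 within number 2. With the pairing it rose, at a limma adjusted p of 0.00013. Without the pairing the limma adjusted p was 0.253, which did not pass. Jade1, a gene of a histone acetylation complex, read 3563 and 3790 against 2568 and 2949, a difference of -0.41 ± 0.17 (SE, n = 2 against 2). Sfmbt2, a Polycomb group gene, read 60.2 and 50.7 against 104 and 83.2, a difference of 0.50 ± 0.30. Jade1 and Sfmbt2 did not pass in either model, and neither did Gab1 (0.33 ± 0.26) or the amino acid transporter gene Slc38a4 (0.0035 ± 0.22).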
